A study of Mus musculus with 6 samples.

Results

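The genes followed here, 7 in number, carry or shape the currents that start, sustain and end the heartbeat. They were measured in hearts with and without Rbpms, an RNA-binding protein gene. They are Scn4b, Cacna1c, Cacna1g, Cacna1h, Cacnb2, Hcn4 and Slc8a1. They were taken by gene symbol from the deposited table, and each symbol matched 1 row, which gave 7 of 20893 genes. The knockout group was 3 heart libraries of the genotype R1KO, a germline knockout of RBPMS. It was set against 3 wildtype heart libraries, which the design text calls littermate controls. All 6 libraries carry the strain label C57BL6/J. The series title places the hearts in the embryo and the design text in the newborn, and no age is given in the labels. A germline knockout removes the gene in every cell of the animal, so these libraries do not separate cardiac from extracardiac loss. Nothing in the labels says that the libraries came from separate animals. By Xist and Y-linked genes each group held male and female libraries, and so more than 1 animal. The p-values measure the spread between libraries, which may in part be technical, as the male libraries of a group could share an animal.

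A heart muscle cell fires when sodium channels open. Scn4b encodes a beta subunit that binds the pores of such channels and alters their gating. Calcium then enters through L-type channels, whose pore is encoded by Cacna1c and whose beta subunit, which carries the pore to the cell surface, is encoded by Cacnb2. T-type calcium channels, with pores encoded by Cacna1g and Cacna1h, open at more negative voltages, are prominent in the fetal heart and remain in pacemaker cells after birth. Hcn4 encodes the main channel of the pacemaker current of the sinoatrial node. Slc8a1 encodes the exchanger that removes calcium from the cell in return for sodium. RBPMS binds RNA at pairs of the triplet CAC and is known as a regulator of splicing in muscle. The table gives a total per gene, so splice forms were not measured.

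The letters that RBPMS is known to bind were located in the 3′ untranslated regions of the 7 genes. Introns and coding sequence were not searched, so places elsewhere in these RNAs that the protein could touch are not covered. For each gene the longest coding transcript of GENCODE M21 (build GRCm38) was read, on the transcript strand only, and overlapping triplets were counted. The window of 30 bases with the most triplets is shown 5′ to 3′, with every CAC in capitals.
Scn4b: tttcccttaccctagaaCACctgccCACAC
Cacna1c: cCACACACACACACACACACACACACACAC
Cacnb2: catacagtcCACACtgattgtgacaaaCAC
Cacna1g: accCACtctgtccccatCACctttctcCAC
Cacna1h: gggCACCACagctccatccatgtgaCACAC
Hcn4: gcctttCACctcccagggcttcaagCACAC
Slc8a1: aCACACACACACACACACACACACACACAC

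These windows lie at chr9:45151041-45151070 (Scn4b, plus strand), chr6:118589115-118589144 (Cacna1c, minus strand), chr2:14986957-14986986 (Cacnb2, plus strand) and chr11:94409110-94409139 (Cacna1g, minus strand). Those of Cacna1h, Hcn4 and Slc8a1 lie at chr17:25374744-25374773 (minus strand), chr9:58861623-58861652 (plus strand) and chr17:81375363-81375392 (minus strand), all in GRCm38. Cacna1c and Slc8a1 each hold a CA repeat with 14 overlapping triplets, a number that 2.6% of 13075 genes reach in a window of this length. Their 3′ untranslated regions are long, at 6652 and 15586 bases, against a median of 1188 bases. Cacna1h has 4 triplets in its window, which 35.5% of genes reach, and the other 4 genes have 3, which 65.8% of genes reach. Over the whole region Cacna1h was the densest of the 7, with 26.9 triplets per kb, a density that 6.5% of genes reach. Cacna1c had 20.6 per kb, Cacnb2 16.4, Hcn4 14.5, Slc8a1 14.5, Scn4b 12.6 and Cacna1g 10.6, against a median of 14.9. Such matches describe the letters and do not show binding.

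Libraries held between 4163230 and 5805697 reads, as recovered from the deposited values, which are read numbers multiplied by a factor for each library and rounded. Rbpms itself had values of 375, 340 and 507 in the knockout and 1182, 1176 and 1317 in the wildtype libraries, so every knockout library was lower. Its log2 fold change was -1.61 ± 0.14 (SE; limma, adjusted p = 0.0124), and the adjusted p was 0.0523 without knockout replicate 1 and 0.0868, 0.0967 and 0.133 without wildtype replicates 1, 2 and 3. Which part of the gene was deleted is not stated by the labels. Genes of working heart muscle were abundant, with a summed value of 23880 to 27006 for 9 such genes in the knockout and 25332 to 27829 in the wildtype. The sum was lowest in knockout replicate 3 and highest in wildtype replicate 3, which had the smallest and the largest factor (0.8524 and 1.1798). No gene of known exon length averaged above 0.925 reads per base of exon. Whether depth or a ceiling on abundant genes enters such sums was not tested. Xist and Y-linked genes showed knockout replicate 3 and wildtype replicate 1 to be female and the other 4 libraries to be male. Knockout replicate 3 stood apart. It had a Pearson correlation of 0.955 to 0.968 with the other 5 libraries over the tested genes, against 0.971 to 0.987 between the others. Its summed value of 5 erythroid genes was 1881, against 552 to 711 in the 3 wildtype libraries and 604 and 685 in the other knockout libraries. In tissue RNA, fewer cells of a type and less RNA per cell cannot be told apart.

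Per kilobase of exon, the exchanger Slc8a1 and the L-type pore Cacna1c were the highest of the 7 genes and Scn4b the lowest. In knockout hearts the levels per kb were 196 ± 15.6 for Slc8a1, 134 ± 6.65 for Cacna1c and 77 ± 25.7 for Cacna1g (SD, n = 3). Cacna1h followed at 63.7 ± 19.4, Cacnb2 at 59.7 ± 8.78, Hcn4 at 22.7 ± 12.5 and Scn4b at 2.01 ± 1.41 per kb. In wildtype hearts the order was the same, with 177 ± 5.59 for Slc8a1, 146 ± 8.96 for Cacna1c and 103 ± 10.3 for Cacna1g. There Cacna1h stood at 82.2 ± 7.67, Cacnb2 at 65.8 ± 9.51, Hcn4 at 33.2 ± 6.9 and Scn4b at 1.2 ± 0.348 per kb. In wildtype hearts no neighbours in this order overlapped. In knockout hearts Cacna1g, Cacna1h and Cacnb2 overlapped in range, each above the next in 2 of 3 libraries. Exon lengths are unions over annotated transcripts, so genes with many alternative exons are set too low.

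**Figure D1:**
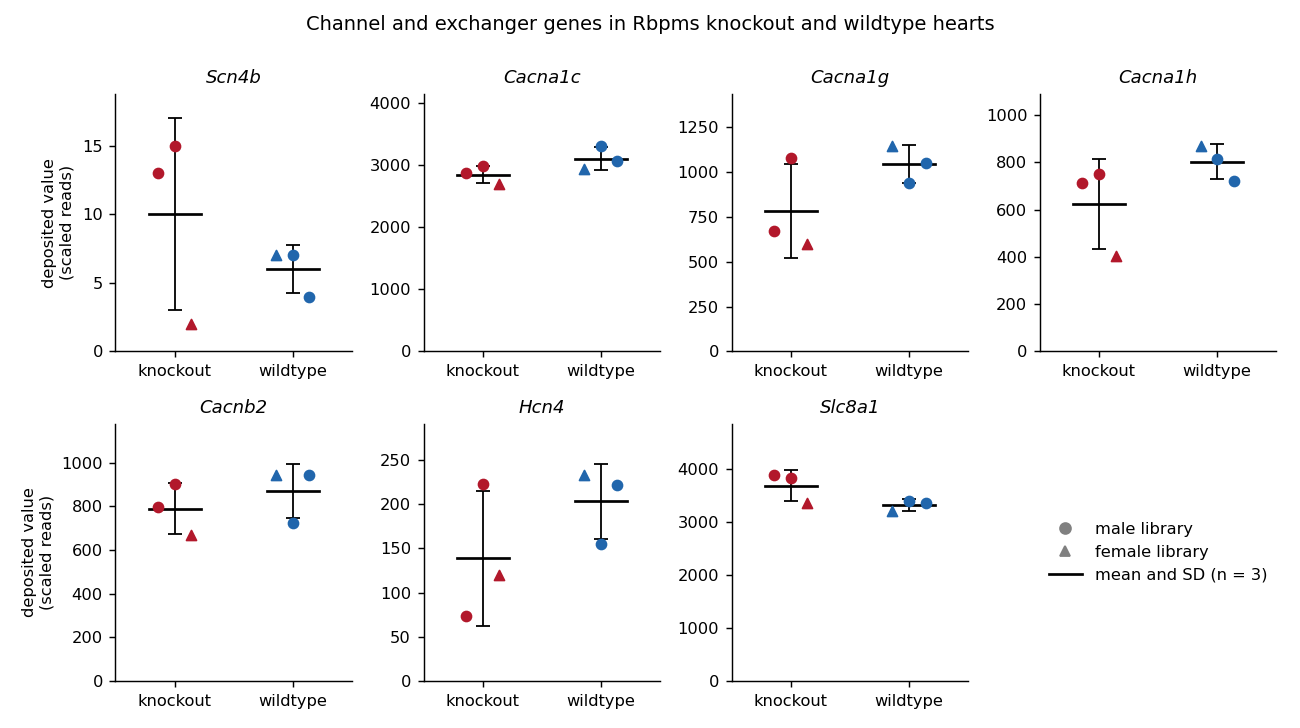
Deposited value (scaled reads, vertical axis from 0) of the 7 genes in each library, knockout left and wildtype right, with circles for male and triangles for female libraries and bars for the mean and SD of 3. The groups overlap in every panel, and the female knockout library is the lowest knockout library for all but Hcn4.

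The sodium channel beta subunit gene Scn4b (chr9:45049693-45065450 in mm39, plus strand) was near the limit of detection. Its values were 13, 15 and 2 in knockout and 7, 7 and 4 in wildtype hearts. The knockout libraries held both the highest values and the lowest, and the groups overlapped. A value of at least 10 was reached in 2 libraries, fewer than the 3 required, so Scn4b was not tested with the other genes. When no filter was applied, its log2 fold change was 0.36 ± 0.60 (SE; limma, adjusted p = 0.843).

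The L-type pore gene Cacna1c (chr6:118564201-119173851, minus strand) differed little between the groups. It had values of 2863, 2975 and 2695 in knockout and 2934, 3308 and 3065 in wildtype hearts. The highest knockout library lay just above the lowest wildtype library. It gave a log2 fold change of -0.12 ± 0.07 (SE; limma, adjusted p = 0.4), equal to 0.917 times wildtype with a 95% interval of 0.824 to 1.02. Male libraries gave -0.13 and the female pair, with 1 library a group, gave -0.12. Of the 7 genes Cacna1c had one of the narrowest intervals, so a level below 0.824 or above 1.02 times wildtype lies outside it.

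Its beta subunit gene Cacnb2 (chr2:14607899-14992719, plus strand) had values of 796, 902 and 670 in knockout and 943, 725 and 943 in wildtype hearts. Knockout replicate 3 was lowest and wildtype replicate 2 was lower than 2 of the knockout libraries. The fitted difference was log2 -0.14 ± 0.14 (SE; limma, adjusted p = 0.657), or 0.907 times wildtype with a 95% interval of 0.73 to 1.13. The difference was 0.04 in male libraries and -0.49 in the female pair, so its sign depended on the libraries used.

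Of the T-type pores, Cacna1g (chr11:94299217-94365024, minus strand) had values of 668, 1079 and 596 in knockout and 1145, 937 and 1050 in wildtype hearts. Knockout replicates 1 and 3 were below every wildtype library, while knockout replicate 2 lay inside the wildtype range. Its log2 fold change was -0.46 ± 0.22 (SE; limma, adjusted p = 0.362), or 0.725 times wildtype with a 95% interval of 0.50 to 1.05. Leaving out knockout replicate 2 gave -0.72 with an adjusted p of 0.00798 (limma), the lowest of 17 alternatives, which ranged up to 0.831. The difference was -0.22 in male libraries and -0.94 in the female pair.

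Cacna1h (chr17:25593259-25652757, minus strand), the other T-type pore, had values of 711, 751 and 404 in knockout and 870, 816 and 722 in wildtype hearts. Knockout replicate 3 was far below all others, and knockout replicate 2 lay above wildtype replicate 3. The log2 fold change was -0.42 ± 0.24 (SE; limma, adjusted p = 0.447), or 0.75 times wildtype with a 95% interval of 0.502 to 1.12. It was -0.13 without knockout replicate 3 (limma, adjusted p = 0.419). The difference was -0.07 in male libraries and -1.10 in the female pair.

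The difference of Cacna1h between the sexes was set out as a term for the knockout effect in male minus that in female libraries, chosen after the data were seen. It was 1.03 on the log2 scale (limma interaction term, adjusted p = 0.00779), and 1.22% of all tested genes passed. All spread between replicates in that fit comes from the male libraries, and the lone female library of each group is assumed to vary like them. The p therefore says only that these female libraries differed more than male replicates do. The female knockout library is replicate 3, which stood apart in many genes, so sex and that library cannot be told apart. The other 5 tested genes did not pass, with adjusted p between 0.337 for Cacnb2 and 0.999 for Cacna1c (limma interaction term).

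Hcn4 (chr9:58730695-58770458, plus strand) had the widest spread of the 6 tested genes. Its values were 74, 223 and 120 in knockout and 233, 155 and 222 in wildtype hearts. As with Cacna1g, knockout replicates 1 and 3 were below every wildtype library and knockout replicate 2 was within their range. Its fitted log2 fold change was -0.67 ± 0.40 (SE; limma, adjusted p = 0.465), or 0.63 times wildtype. The 95% interval ran from 0.323 to 1.23, which takes in both an equal level and one well below wildtype. Without knockout replicate 2 the log2 fold change was -1.08 (limma, adjusted p = 0.0629), and without knockout replicate 1 it was -0.29 (0.729), so single libraries decide its size. The 8 listed genes of the sinoatrial node, where Hcn4 is strongest, summed to 1163, 1195 and 1137 in knockout and 1117, 1142 and 1086 in wildtype hearts. That sum did not follow the spread of Hcn4, but it rests mainly on Tbx18, Tbx3 and Smoc2, so it cannot show the amount of node cells. These averaged 338, 321 and 268 in knockout hearts, against 28 for Shox2 and 5.67 each for Isl1 and Vsnl1. The members of the list also differed. Vsnl1, a calcium sensor gene, had 4, 10 and 3 in knockout and 15, 29 and 21 in wildtype hearts (limma, adjusted p = 0.0886). Tbx3, a transcription factor gene of the node, had 345, 320 and 298 in knockout and 230, 267 and 256 in wildtype hearts (limma, adjusted p = 0.109). Neither overlapped, in opposite directions. Likewise without overlap, Smoc2 was lower and Shox2 higher in knockout hearts (limma, adjusted p = 0.12 and 0.31). Isl1, another transcription factor gene of the node, had 0, 4 and 13 in knockout and 6, 4 and 5 in wildtype hearts. The part of node cells in the values of Hcn4 was not tested.

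Slc8a1 (chr17:81680534-82045806, minus strand) was the 1 tested gene of the 6 with a fold change above 0. Its values were 3893, 3833 and 3357 in knockout and 3211, 3412 and 3365 in wildtype hearts. Knockout replicates 1 and 2 were above every wildtype library, and knockout replicate 3 was within the wildtype range. The fitted difference was log2 0.15 ± 0.07 (SE; limma, adjusted p = 0.345), or 1.11 times wildtype with a 95% interval of 0.99 to 1.24. The difference was 0.19 in male libraries and 0.06 in the female pair, and without knockout replicate 3 it was 0.21 (limma, adjusted p = 0.0745).

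Counted together, 0 of the 6 tested genes passed an adjusted p of 0.05 by limma and 0 by voom on recovered reads. Over all 14974 tested genes 0.942% passed, 0.508% higher and 0.434% lower in knockout hearts. At an unadjusted p under 0.05, limma gave 0 of the 6, against 16.4% of all genes. The groups overlapped in all 6, whereas they did not overlap in 22% of all genes. With 6 genes, a count of 0 against a background of 0.942% is no result about them. Of the 6 genes, 5 had fold changes below 0 and their median log2 fold change was -0.28, against a median of -0.0009 and 50.2% below 0 over all genes.

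**Figure D2:**
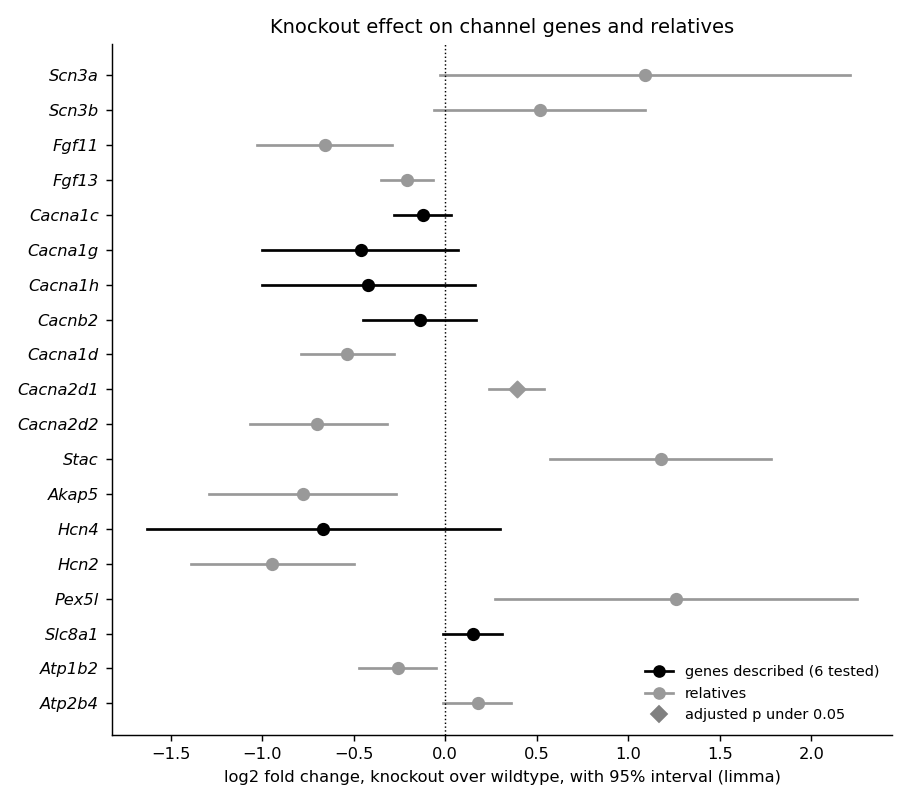
Log2 fold change of knockout over wildtype (horizontal axis) with its 95% interval from limma, for the 6 tested genes described (black) and named relatives (grey), with diamonds for an adjusted p under 0.05. All black intervals cross 0, that of Hcn4 is the widest of them (log2 -1.63 to 0.30), and the 1 diamond is Cacna2d1 at 0.39.

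Around the 7 genes, 82 relatives in 6 families are reported, and 59 of the 75 in the table were tested. Of these 1 rose in knockout hearts and 0 fell, where 0.508% of all genes rose and 0.434% fell. By voom 0 passed. Before adjustment, 6 were higher and 8 lower with p under 0.05 (limma), 23.7% of the 59 against 16.4% of all genes. The groups did not overlap in 16, 27.1% against 22%. Among 6 tested sodium channel genes 0 passed (0 at an unadjusted p under 0.05 and 0 by voom), with a median log2 fold change of 0.33. The 2 with the smallest p were Scn3a, a neuronal pore, at 47 ± 28.8 in knockout and 20 ± 8.89 in wildtype hearts, and the beta subunit Scn3b, at 31 ± 4.36 and 21.7 ± 5.51 (SD, n = 3 each). For Scn3a and Scn3b the adjusted p were 0.312 and 0.35 (limma).

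Of 11 genes whose proteins bind, anchor or degrade sodium channels, 0 passed by limma or voom, and 2 were lower at an unadjusted p under 0.05. These were Fgf11 and Fgf13, of a family of intracellular fibroblast growth factor homologues that bind sodium channels. Fgf11 averaged 105 ± 18.3 in knockout and 165 ± 24.2 in wildtype hearts, and Fgf13 554 ± 22.1 and 641 ± 14.2 (SD, n = 3 each). Neither overlapped between groups, and their adjusted p were 0.0995 and 0.148 (limma). Without knockout replicate 2 or 3, Fgf11 had 0.0496 or 0.0481.

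The calcium channel family held the 1 rise. Cacna2d1, which encodes the alpha-2-delta subunit that accompanies the L-type pore in heart, had values of 779, 755 and 840 in knockout and 585, 634 and 592 in wildtype hearts. Every knockout library lay above every wildtype library. Its log2 fold change was 0.39 ± 0.07 (SE; limma, adjusted p = 0.0452), or 1.31 times wildtype with a 95% interval of 1.18 to 1.46. The log2 fold change was 0.32 to 0.43 under all 17 alternatives. The call was lost by voom (adjusted p = 0.0581), without trend and robust moderation (0.127), in male libraries only (0.0863), with the replicate number as a block (0.139), without knockout replicate 1 (0.141) and without wildtype replicates 1, 2 and 3 (0.244, 0.0974 and 0.211), all within 0.0122 to 0.244 over 17 alternatives. Its relative Cacna2d2 had 209, 256 and 161 in knockout and 346, 362 and 295 in wildtype hearts, with no overlap but in the opposite direction (log2 -0.70 ± 0.16; limma, adjusted p = 0.0904). The adjusted p of Cacna2d2 was 0.0145 without knockout replicate 2 and 0.0176 without knockout replicate 3. Cacna2d2 is named because of its values, outside the rule for named genes. Among the 11 tested genes of this family, limma before adjustment put 4 higher and 3 lower with p under 0.05. That was 63.6% of the 11, against 16.4% of all genes. No set test was run, and the list was chosen with earlier results of these data known.

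Cacna1d encodes the other L-type pore of heart, found mainly in atria and pacemaker cells. It had values of 174, 200 and 160 in knockout and 249, 285 and 241 in wildtype hearts. All knockout libraries were below all wildtype libraries, with a log2 fold change of -0.54 ± 0.11 (SE; limma, adjusted p = 0.0632). The adjusted p ran from 0.0239 to 0.271 over 17 alternatives, and it was 0.0494 with sex as a term, 0.0256 without knockout replicate 2 and 0.0239 without knockout replicate 3. Of 14 tested genes that regulate calcium channels 0 passed by limma or voom. Before adjustment 1 was higher and 1 lower with p under 0.05 (limma), 14.3% of the 14 against 16.4% of all genes. These were Stac, an adaptor that binds L-type channels, at 24 ± 3.46 in knockout and 10 ± 1 in wildtype hearts, and the kinase anchor Akap5, at 24.3 ± 4.04 and 42.3 ± 5.86 (SD, n = 3 each). Their adjusted p were 0.0776 and 0.14 (limma).

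In the pacemaker family 0 of 4 tested genes passed by limma or voom. Before adjustment 1 was higher and 1 lower with p under 0.05 (limma), 50% of the 4 against 16.4% of all genes. Hcn2, a pacemaker channel of the same family as Hcn4, had values of 38, 46 and 34 in knockout and 64, 86 and 80 in wildtype hearts. Unlike in Hcn4, the groups did not overlap. The log2 fold change was -0.95 ± 0.20 (SE; limma, adjusted p = 0.0613), or 0.519 times wildtype, with an adjusted p of 0.0439 in male libraries only and 0.0411 with sex as a term. It was 0.0326 without knockout replicate 2 and 0.0245 without knockout replicate 3. Over all 6 libraries, levels per kb of exon averaged 18.2 for Hcn2, beside 28 for Hcn4. Pex5l, whose product binds pacemaker channels and alters their traffic to the cell surface, had 16, 12 and 29 in knockout and 4, 11 and 7 in wildtype hearts. Its groups did not overlap either, with the knockout libraries above (log2 1.26 ± 0.44; limma, adjusted p = 0.2).

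Among 13 tested exchangers and pumps 0 passed by limma or voom. Before adjustment 1 was lower with p under 0.05 (limma), 7.69% of the 13 against 16.4% of all genes in either direction. That gene was Atp1b2, a beta subunit of the sodium pump, whose sodium gradient drives the Slc8a1 exchanger. It had values of 617, 670 and 522 in knockout and 748, 718 and 693 in wildtype hearts. All knockout libraries lay below all wildtype libraries, with a log2 fold change of -0.26 ± 0.09 (SE; limma, adjusted p = 0.204). The next smallest p was that of Atp2b4, a calcium pump of the cell membrane, at 523 ± 15.1 in knockout and 464 ± 47.4 in wildtype hearts (SD, n = 3 each; limma, adjusted p = 0.327). Its groups overlapped.

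**Figure D3:**
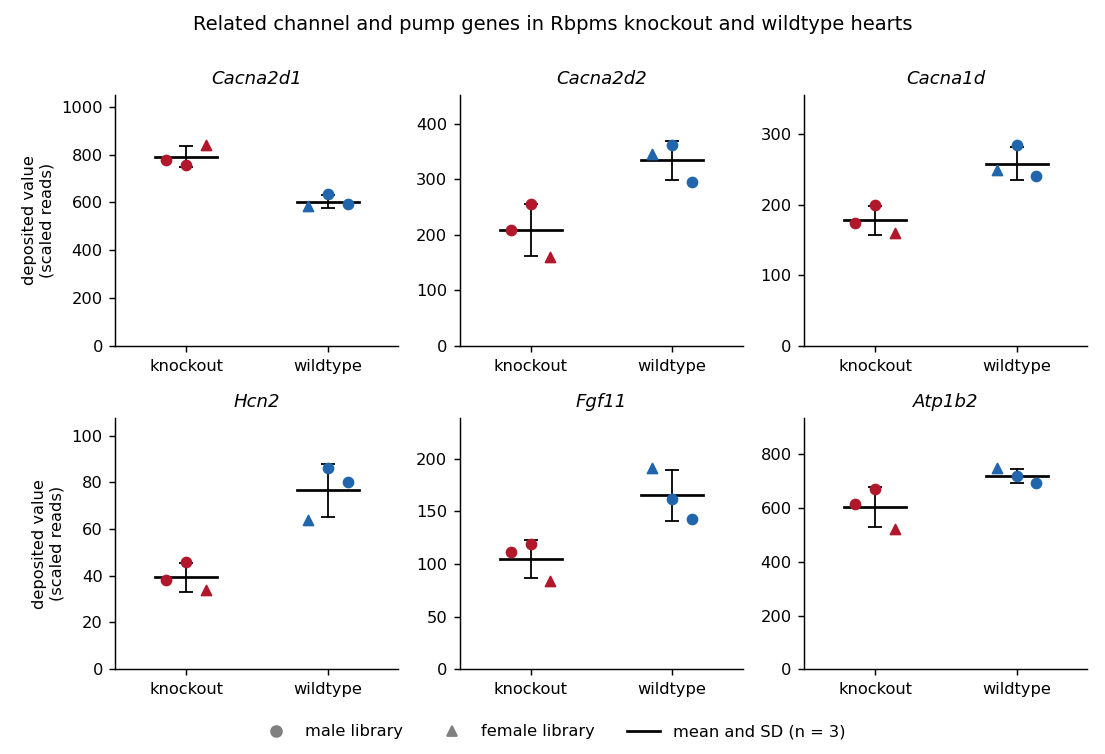
Deposited value (scaled reads, vertical axis from 0) of 6 relatives in each library, knockout left and wildtype right, with circles for male and triangles for female libraries and bars for the mean and SD of 3. No panel has overlapping groups, with Cacna2d1 higher and the other 5 genes lower in the knockout libraries. All 6 were picked from the 16 of 59 tested relatives whose groups did not overlap (27.1%, against 22% of all genes). Neither the separation nor the number of lower genes is therefore a result. Stac and Pex5l, not shown, also separated and were higher in the knockout libraries.

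Ratios of 2 genes within a library do not depend on the scaling between libraries, and 7 were compared by a two-sided exact permutation test, which with 3 against 3 cannot go below 0.1. Of the 7 ratios, 4 did not overlap between groups, each with exact p = 0.1 (0.175 adjusted over the 7). No such share was computed over ratios of other genes, and the 22% of single genes without overlap is a different measure. The 4 ratios are not independent, since 2 share Cacna1c and 2 share Slc8a1. Cacna1d and Cacna2d1 also did not overlap as single genes. Cacna1d over Cacna1c was 0.0608, 0.0672 and 0.0594 in knockout and 0.0849, 0.0862 and 0.0786 in wildtype hearts, a log2 difference of -0.41. Cacna2d1 over Cacna1c was 0.272, 0.254 and 0.312 in knockout and 0.199, 0.192 and 0.193 in wildtype hearts, a log2 difference of 0.51. Beside the same pore, its beta subunit was at a like ratio in both groups. Cacnb2 over Cacna1c was 0.278, 0.303 and 0.249 in knockout and 0.321, 0.219 and 0.308 in wildtype hearts (log2 difference -0.02, exact p = 0.9).

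Hcn4 over Hcn2 overlapped, at 1.95, 4.85 and 3.53 in knockout and 3.64, 1.8 and 2.77 in wildtype hearts (exact p = 0.6). The exchanger was higher in every knockout library relative to both pumps it was set against. Slc8a1 over Atp2a2, which encodes the calcium pump of the sarcoplasmic reticulum, was 0.974, 0.88 and 0.853 in knockout and 0.748, 0.844 and 0.707 in wildtype hearts, a log2 difference of 0.24. Atp2a2 stood at 0.697 reads per base of exon, where the highest gene had 0.925. Its value was lowest in knockout replicate 3 (3934) and highest in wildtype replicate 3 (4757), which had the smallest and the largest library factor. The part of depth or of a ceiling on abundant genes in this ratio was not tested. Slc8a1 over Atp2b1, a calcium pump of the cell membrane, was 6.36, 6.67 and 5.66 in knockout and 5.26, 5.49 and 5.51 in wildtype hearts, a log2 difference of 0.20. The ratio of the T-type pores overlapped, with Cacna1h over Cacna1g at 1.06, 0.696 and 0.678 in knockout and 0.76, 0.871 and 0.688 in wildtype hearts (log2 difference 0.05, exact p = 0.9).

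**Figure D4:**
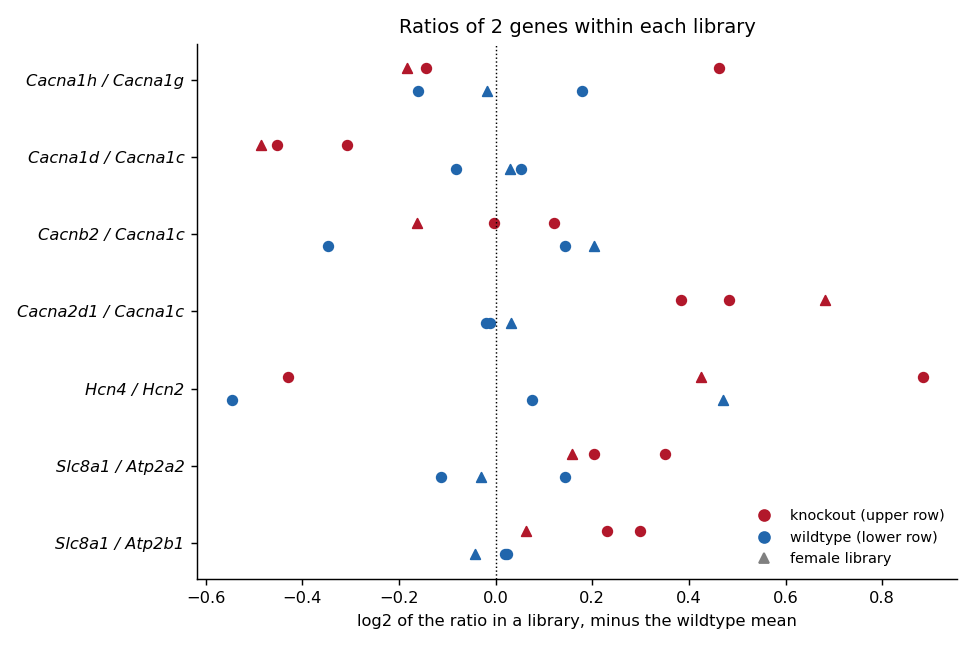
Log2 of 7 gene ratios in each library, minus the wildtype mean (horizontal axis), with knockout libraries in the upper and wildtype libraries in the lower row of each ratio and triangles for female libraries. Knockout and wildtype points separate for Cacna1d and Cacna2d1 over Cacna1c and for both Slc8a1 ratios, and overlap for the other 3.

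For each gene, the genes whose values followed it most closely over the 6 libraries were sought among 9854 genes with a mean value of at least 100. Pearson correlations of log2 values are given as a description without a p, since the highest of so many over 6 points is high by choice. Cacna1g was followed most closely by Mcm3, a subunit of the replicative helicase (r = 0.994), and by the receptor gene Sirpa (0.99). Mcm3 had 206, 330 and 166 in knockout and 362, 295 and 342 in wildtype hearts, the same order of libraries as Cacna1g in the knockout. Hcn4 was followed by Sfrp2, a secreted Wnt antagonist (0.985), and by the cell cycle kinase gene Wee1 (0.984). For Cacna1h the closest were Pex11a, of peroxisomes (0.996), and Adgrb2, an adhesion receptor (0.994). Slc8a1 was closest to Herc3 (0.999) and Tacc2 (0.992), Cacna1c to Tmem18 (0.98) and Enox2 (0.978), and Cacnb2 to Qpctl and Ddost (both 0.994). Scn4b was closest to Katnip (0.995) and Stom (0.993), on values of 15 or less. None of these 14 genes passed the test between groups, with adjusted p between 0.218 and 0.929 (limma).

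Markers of other cell types that express some of these channels were set beside the results. Smooth muscle, which also uses L-type and T-type channels, had a summed value of 2352 to 2812 for 6 genes in knockout and 3024 to 3337 in wildtype hearts, with no overlap. Of the 6, 4 were lower before adjustment with p under 0.05, where 16.4% of all genes reached that p in either direction, and the smallest adjusted p was 0.057, for Myh11 (limma). The remaining genes, Tagln and Lmod1, overlapped between groups and were highest in knockout replicate 3. Tagln had 246, 362 and 512 in knockout and 381, 343 and 373 in wildtype hearts. Lmod1 had 44, 54 and 251 in knockout and 55, 71 and 33 in wildtype hearts. The 8 atrial genes summed to 2720 to 3175 in knockout and 2999 to 4031 in wildtype hearts, highest in wildtype replicate 2, which was the lowest wildtype library for Hcn4, Cacnb2 and Cacna1g. Of these 8, 1 fell, where 0.434% of all genes did. It was Stard10, with 209, 221 and 185 in knockout and 283, 368 and 310 in wildtype hearts (log2 -0.64 ± 0.12; limma, adjusted p = 0.0472). Its adjusted p ran from 0.00951 to 0.221 over the alternatives, and the call was lost, among others, by voom (0.0589), without knockout replicate 1 (0.141) and without wildtype replicates 1, 2 and 3 (0.144, 0.131 and 0.221). The 5 ventricular genes summed to 3629 to 4370 in knockout and 4085 to 4826 in wildtype hearts. Myl2 and Myl3, the most abundant of them, stood at 0.697 and 0.546 reads per base of exon, where the highest gene had 0.925. Their sum too was lowest in knockout replicate 3 and highest in wildtype replicate 3, the libraries with the smallest and the largest factor. The part of depth or of a ceiling in that sum was not tested. Of the 5 ventricular genes 1 fell, against the same 0.434% of all genes. It was the transcription factor gene Hey2, with 518, 531 and 513 in knockout and 707, 696 and 748 in wildtype hearts (log2 -0.46 ± 0.06; limma, adjusted p = 0.0219). The adjusted p of Hey2 ran from 0.00282 to 0.143, and was 0.0306 by voom, 0.0928 without knockout replicate 1 and 0.138, 0.0974 and 0.143 without wildtype replicates 1, 2 and 3. The 6 genes of the ventricular conduction system summed to 1522 to 2108 in knockout and 1762 to 2061 in wildtype hearts, lowest in knockout replicate 3. Of 7 neural genes measured, 4 were at 10 or under in every library, and the 7 summed to 187 to 233 in knockout and 211 to 240 in wildtype hearts. The part of these cell types in the values above was not tested.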

How the data were processed

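RNA of mouse hearts was sequenced as mRNA libraries, 3 of the Rbpms knockout and 3 of the wildtype. The deposited values, 1 per gene and library, are treated as a score: the authors multiplied read numbers by 1 factor per library and rounded, as the values themselves show. The submitters' processing notes name Trimmomatic 0.39, STAR 2.7.11a, Picard 3.0.0, featureCounts 2.0.4, DESeq2 1.36.0 and the build mm39, with no settings. Gene coordinates are those of the deposited table.

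The factors were recovered from the spacing of low values, and dividing by them gave whole reads for 100% of values under 400. In 3 libraries 6.72% to 30.56% of these could be either of 2 neighbouring read numbers. Those 3 have factors below 1 (0.9371, 0.8524 and 0.9568), for which any value would give a whole read number. The 100% is therefore informative only for the libraries with a factor above 1. Log2(value + 1) was compared between groups with limma 3.58.1 (R 4.3.3; trend and robust moderation) for the 14974 genes that reached 10 in 3 or more libraries. P-values were adjusted by Benjamini-Hochberg over all of them, with a threshold of 0.05. Fold changes on this scale understate those of low genes.

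Levels per kb used exon lengths of GENCODE M21 (GRCm38), matched by gene ID for 96.5% of genes. 3′ untranslated regions came from the same annotation. The 17 alternatives were voom on recovered reads, 2 other scalings, 2 pseudocounts, 2 filters, no trend, a replicate block, a term for sex, male libraries only, and each library left out. Male libraries only and the interaction with sex were chosen after seeing the data.

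The 7 genes and all lists were chosen with earlier results of these data known. Named genes were the 7, Rbpms, each relative that passed or else the 2 with the smallest p in its list, and the 2 most alike genes for each of the 7. Cacna1d, Atp2a2 and Atp2b1 entered as parts of ratios. All values come from bulk RNA, and no cell composition was estimated. Some listed relatives and ratios are not reported here, and counts of relatives leave them out.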

Additional observations from a re-analysis of the deposited data

Results flagged for a closer look

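The knockout effect on Cacna1h was 1.03 higher on the log2 scale in male than in female libraries. The effect was -0.07 in 2 male libraries a group and -1.10 in the female pair. It was singled out by an interaction of knockout and sex in limma (adjusted p = 0.00779), a term chosen after the data were seen. All replicate spread in that fit comes from male libraries, and the lone female library of each group is assumed to vary like them. Each group holds 1 female library. The female knockout library, replicate 3, had 404 for Cacna1h, against 711 and 751 in the male knockout libraries. Sex and that library cannot be told apart.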

How the results depend on the processing

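Of 102 refits of the 6 tested genes, 100 kept their direction and their side of the threshold. The exceptions were Cacna1g, which passed without knockout replicate 2 (log2 fold changes of -0.72 to -0.29 with single libraries left out), and Cacnb2, which was 0.04 in male libraries only. Of the 7 genes, 0 to 1 passed when a library was left out. Over all genes, the 141 changed genes became 77 by voom, 218 with no filter, 83 with a minimum of 50, 24 without trend, 256 in male libraries only, 223 with sex as a term and 0 to 727 with single libraries left out. The 1 changed relative became 0 by voom, 3 with no filter, 0 without trend, 3 with sex as a term and 0 to 6 with single libraries left out. With a pseudocount of 10, the 7 ratios moved by less than the replicate spread. The causes were not tested.

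Libraries of the same replicate number did not deviate together (r = -0.169, -0.111 and -0.13). Replicates 1 and 3 each join a male and a female library, and knockout replicate 3 stood apart. The check therefore cannot decide whether the numbers pair the libraries. With the replicate block 23 genes and 0 relatives passed, and no call among the 7 genes was altered. Between 4163230 and 5805697 reads a library leave Scn4b and Isl1 on few reads each, so their values carry a large counting error.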

Other observations

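Other channel genes at low levels also separated the groups, as 22% of all tested genes did. Those below are named because of their values and are not a full list. Scn4a and Cacna2d3, for example, also separated, with lower values in knockout hearts. Values this low carry a large counting error. Cacna1e, the pore of R-type calcium channels, had 21, 13 and 23 in knockout and 6, 7 and 7 in wildtype hearts (log2 1.35 ± 0.33, SE; limma, adjusted p = 0.0909, and 0.0428 without knockout replicate 2). Kcne2, a small subunit that can accompany pacemaker channels, had 4, 4 and 3 in knockout and 11, 8 and 15 in wildtype hearts and was too low to be tested. Hcn3, another pacemaker channel gene, had 10, 9 and 14 in knockout and 8, 8 and 4 in wildtype hearts and was not tested either.

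Fgf12, whose product binds sodium channels, had 9, 16 and 22 in knockout and 10, 215 and 19 in wildtype hearts. Its high value was that of wildtype replicate 2, which also had the highest sum of atrial genes.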
